A study of Mus musculus with 30 samples.

Results

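The 8 Gimap genes measured here (Gimap1, Gimap3, Gimap4, Gimap5, Gimap6, Gimap7, Gimap8 and Gimap9) were chosen by symbol, and all 8 of 8 were found in each of the 3 deposited count tables, which list 21983 symbols (thymus DP and CD4 SP) or 46095 symbols (thymus CD8 SP, and spleen). The study sorted 5 T cell populations by flow cytometry from C57BL/6 mice: CD4+CD8+ double-positive (DP), CD4 single-positive (CD4 SP) and CD8 single-positive (CD8 SP) thymocytes, and CD4 and CD8 T cells of the spleen. The CKO mice were CD4-Cre+ PRMT5fl/fl, so that Cre under Cd4 promoter control deletes Prmt5, an arginine methyltransferase gene, from the DP stage on, and the WT mice carried the wild type genotype. Each population gave 3 CKO and 3 WT libraries of poly(A)-selected RNA, 30 in all. There was no group with the Cre and an intact Prmt5, so the Cre itself and the deletion cannot be separated. The ages of the mice are not given in the labels.

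GIMAP proteins (GTPases of immunity-associated proteins) are small GTP-binding proteins found mainly in lymphocytes, where several are anchored in membranes of lysosomes, the endoplasmic reticulum or the Golgi. They are best known for keeping mature lymphocytes alive: rodents without Gimap5 lose peripheral T cells, and mice without Gimap1 lose mature T and B cells. In mice, Gimap3 and Gimap5 are close paralogs linked to proteins of the Bcl2 family, Gimap4 is linked to T cell death, and Gimap6 to the autophagy protein GABARAPL2.

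The 8 genes lie next to each other within 123666 bases of chromosome 6 (GRCm38, 48647186 to 48770851), in the order Gimap8, Gimap9, Gimap4, Gimap6, Gimap7, Gimap1, Gimap5 and Gimap3. Gimap6 and Gimap3 are on the minus strand and the others on the plus strand. GENCODE M21 gives merged exon lengths between 1642 bases (Gimap9) and 4149 bases (Gimap5). Exons of the antisense gene Gimap1os cover 1107 bases, or 36%, of the Gimap1 exons, and the strand setting of the counting is not given in the sources used here, so reads of the pair cannot be told apart with certainty. The readthrough gene model Gm28053 overlaps 3.48% of the exon bases of Gimap7, 6.44% of Gimap1 and 3.69% of Gimap5 on the same strand. Of all pairs of members, Gimap3 and Gimap5 were the one pair that shared stretches of 50 bases in their annotated transcripts, at 7.52% of the Gimap3 stretches and 4.53% of the Gimap5 stretches, so part of their reads may be ambiguous.

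Promoters are shown for 4 members on which the results below turn: Gimap4 and Gimap3, with the largest difference between thymocyte stages, and Gimap7 and Gimap6, which moved in opposite directions in CKO spleen CD8 cells. Each line gives the 250 bases before the annotated start, read along the gene's own strand, from RefSeq on GRCm38.p6. Capitals mark matches, on either strand, to the motifs named after the lines.
Gimap4 (chr6:48684328-48684577, plus strand): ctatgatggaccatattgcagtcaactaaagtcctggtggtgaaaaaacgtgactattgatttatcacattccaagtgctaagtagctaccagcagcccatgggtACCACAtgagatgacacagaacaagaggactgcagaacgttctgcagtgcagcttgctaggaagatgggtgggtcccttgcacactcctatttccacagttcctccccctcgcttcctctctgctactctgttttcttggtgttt
Gimap3 (chr6:48770852-48771101, minus strand): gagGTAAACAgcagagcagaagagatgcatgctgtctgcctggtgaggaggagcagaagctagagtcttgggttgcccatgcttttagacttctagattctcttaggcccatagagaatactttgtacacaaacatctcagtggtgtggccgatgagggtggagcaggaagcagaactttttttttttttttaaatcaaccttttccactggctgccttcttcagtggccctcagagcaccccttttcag
Gimap7 (chr6:48718371-48718620, plus strand): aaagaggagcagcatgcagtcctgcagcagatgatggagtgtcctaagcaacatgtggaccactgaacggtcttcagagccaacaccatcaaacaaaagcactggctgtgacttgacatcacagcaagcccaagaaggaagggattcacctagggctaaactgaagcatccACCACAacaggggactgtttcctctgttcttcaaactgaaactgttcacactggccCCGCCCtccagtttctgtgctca
Gimap6 (chr6:48708245-48708494, minus strand): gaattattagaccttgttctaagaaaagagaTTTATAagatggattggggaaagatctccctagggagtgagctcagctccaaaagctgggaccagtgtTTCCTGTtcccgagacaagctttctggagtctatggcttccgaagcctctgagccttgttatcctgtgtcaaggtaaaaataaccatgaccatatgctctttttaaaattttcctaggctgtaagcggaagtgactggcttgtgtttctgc

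The motifs were searched on both strands of windows of 300 bases (250 before and 50 after the start) for all 8 members, which have 9 windows, and for 32851 windows of all genes in the RefSeq table. TGTGGT, the core of RUNX sites, occurred in Gimap1, Gimap4 and Gimap7 and in 16.8% of all windows, and its first base lay 145 bases before the Gimap4 start and 79 bases before the Gimap7 start. ACAGGAA, an ETS-type core, occurred in Gimap5, Gimap6 and Gimap9 and in 8.67% of all windows, while the other ETS core, CCGGAA, occurred in 0 of the 9 member windows and in 14.9% of all windows. The forkhead motif GTAAACA was found in Gimap3, 247 bases before its start, and in 3.65% of all windows. GTGGGAA, the RBPJ core, was found in Gimap3 after the start and in 6.38% of all windows. The GC box GGGCGG was found in Gimap7 and Gimap9 (35.7% of all windows), the TATA box TATAAA in Gimap6 (13.6%), and the KLF motif CACACCC in 0 member windows (7.95%). No match overlapped another, and no motif was shared by Gimap3 and Gimap4. A match describes letters in a window and shows no binding.

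Library totals ran from 11865646 to 35353441 counts, and levels below are CPM (a gene's counts scaled to a common library size) after scaling by trimmed mean of M values (TMM) within a table. Prmt5 averaged below WT in CKO libraries of all 5 populations, with log2 fold changes of -1.09, -0.99, -0.31, -0.97 and -0.87 in thymus DP, CD4 SP and CD8 SP and in spleen CD4 and CD8 (adjusted p = 0.000845, 0.958, 0.045, 0.000109 and 0.000829, edgeR), so the difference in thymus CD4 SP did not pass. T cell markers were found in all libraries, but not at like levels. Cd2 averaged 5.20 CPM in CKO and 6.43 CPM in WT spleen CD8 cells, against 423 and 240 CPM in CKO and WT CD4 SP thymocytes. Cd3e averaged 501 and 527 CPM in those spleen cells, against 542 and 396 CPM in CD4 SP thymocytes. The cause of the low Cd2 level in spleen CD8 cells was not tested. The libraries labelled thymus CD4 SP did not all lack Cd8a, which marks DP and CD8 cells: it had 2328, 44.0 and 954 CPM in CKO 14, 17 and 23, against 1220, 1105 and 1540 CPM in WT 15, 18 and 24 and 2597 to 2816 CPM over the 6 DP libraries. The summed level of 8 double-positive stage genes (Rag1, Rag2, Dntt, Ccr9, Mns1, Arpp21, Tcf12 and Themis) was 5101, 869 and 3227 CPM in those CKO libraries, against 3701, 2861 and 4749 CPM in the WT libraries, 7326 to 8907 CPM in DP, and 374 to 689.6 CPM in spleen. All CD4 SP libraries, WT included, had sums above those of spleen and below those of DP, with CKO 17 nearest to spleen. CKO 14 and CKO 17 stand apart as the highest and the lowest, and CD4 SP results that rest on them are also given without each of them. By Ddx3y, CKO 17 and WT 18 of the DP and CD4 SP libraries were male, as were CKO 1 and all 3 WT mice of the CD8 SP libraries. All spleen libraries were female.

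The Gimap family as a whole was low in DP and in CD8 SP thymocytes and high in spleen T cells. Its summed level in CKO libraries averaged 654 ± 7.01 CPM in DP, 2079 ± 1055 CPM in CD4 SP, 560.2 ± 15.9 CPM in CD8 SP, 3128 ± 107 CPM in spleen CD4 and 2772 ± 267 CPM in spleen CD8 cells (SD, n = 3 each). In WT libraries it averaged 551 ± 63.6, 1625 ± 359.8, 663 ± 58.0, 3520 ± 237 and 3013 ± 156 CPM in the same order. The 3 tables were scaled separately and hold different gene sets, so tests stayed inside 1 table and levels set side by side from different tables are a description. A lower level in bulk RNA can come from fewer expressing cells or from less RNA per cell, and these cannot be told apart here.

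**Figure D1:**
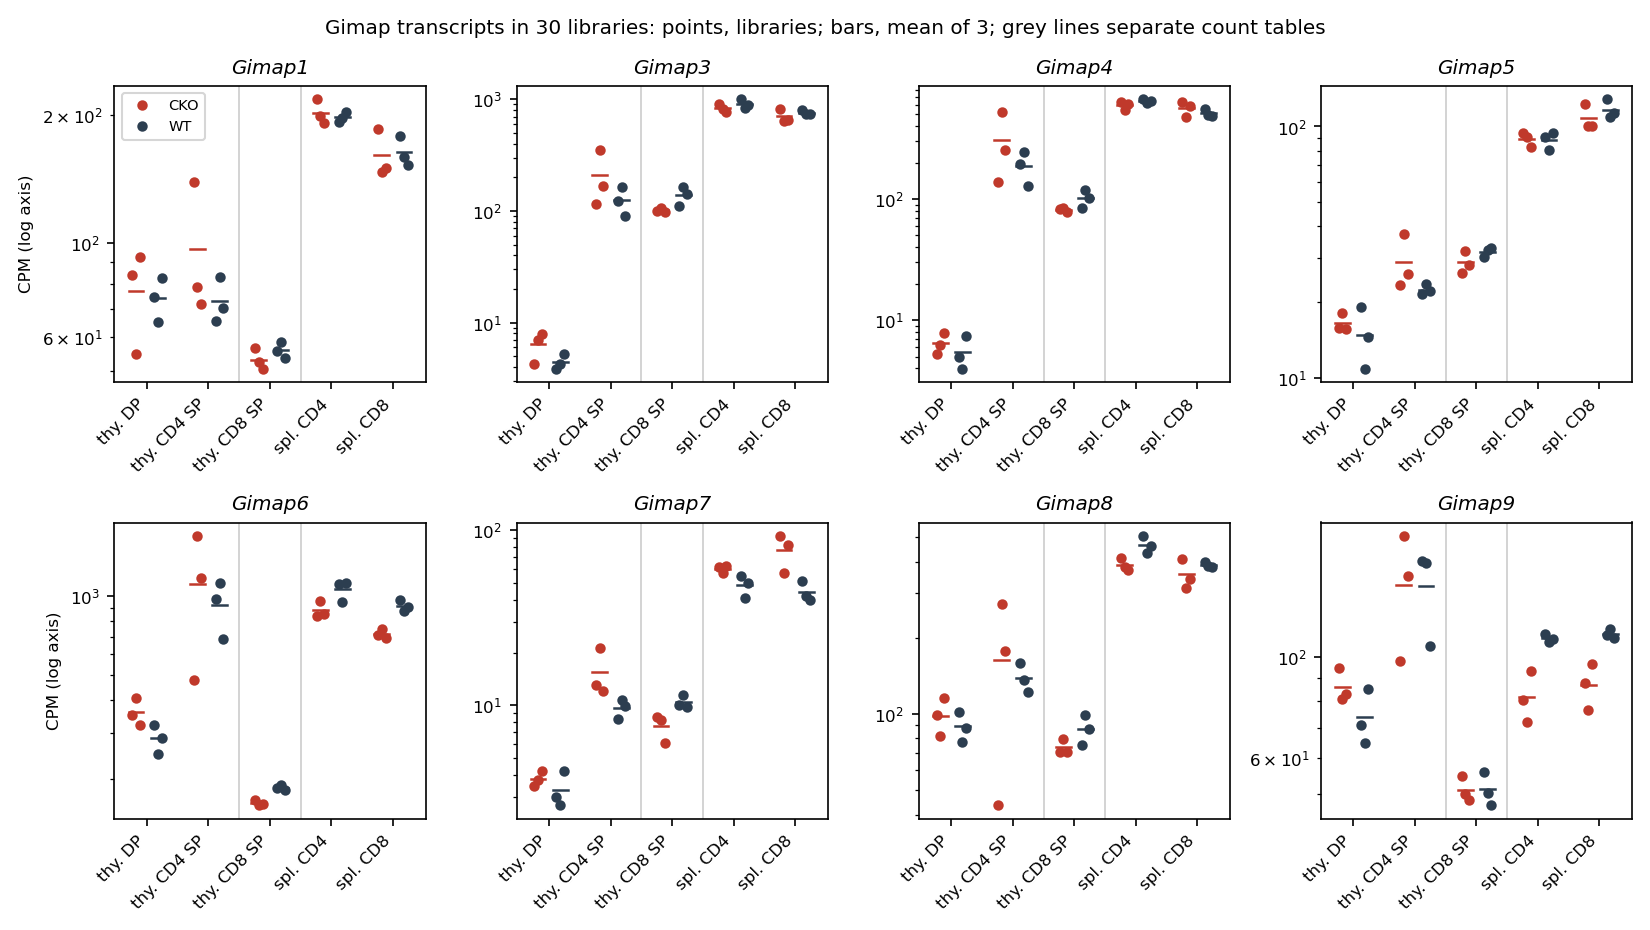
Levels of the 8 Gimap genes in 30 libraries, in CPM on a log axis, with CKO in red left of WT in dark blue, a bar for the mean of 3 libraries and grey lines between the 3 count tables. Gimap3 and Gimap4 lie at or below 7.93 CPM in the 6 DP libraries and at or above 475 CPM in all 12 spleen libraries.

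The members differed in level in DP cells. In WT, Gimap3, Gimap4 and Gimap7 were nearly off, with means of 4.48, 5.41 and 3.28 CPM. Gimap5 was low at 14.8 CPM, and the other members were already on. Per kilobase of exon, Gimap6 was the highest member in WT DP cells at 81.8 CPM per kb, followed by Gimap9 (44.9), Gimap1 (24.2) and Gimap8 (24.1). Gimap5 (3.57), Gimap4 (2.95), Gimap3 (1.74) and Gimap7 (1.41) were the lowest. In that order the neighbours Gimap1 and Gimap8, Gimap5 and Gimap4, and Gimap3 and Gimap7 overlapped between libraries, and the other neighbours did not. In WT spleen CD4 cells the highest were Gimap3 (352 CPM per kb), Gimap4 (348) and Gimap6 (303), and Gimap3 and Gimap4 did not differ beyond their spread. There Gimap8 (126), Gimap9 (66.8) and Gimap1 (64.3) were intermediate, with Gimap9 and Gimap1 within each other's spread, and Gimap5 (21.3) and Gimap7 (21.0) were lowest and overlapped. Gimap3 and Gimap4 together thus made up little of the family's summed CPM per kb in DP (0.947% and 1.58% in WT) and most of it beside Gimap6 in spleen CD4 (27.0% and 26.7%). The share of Gimap6 was 44.3% in WT DP, 46.0% in WT CD4 SP and 23.3% in WT spleen CD4 cells, and that of Gimap9 was 24.3%, 15.2% and 5.14%.

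**Figure D2:**
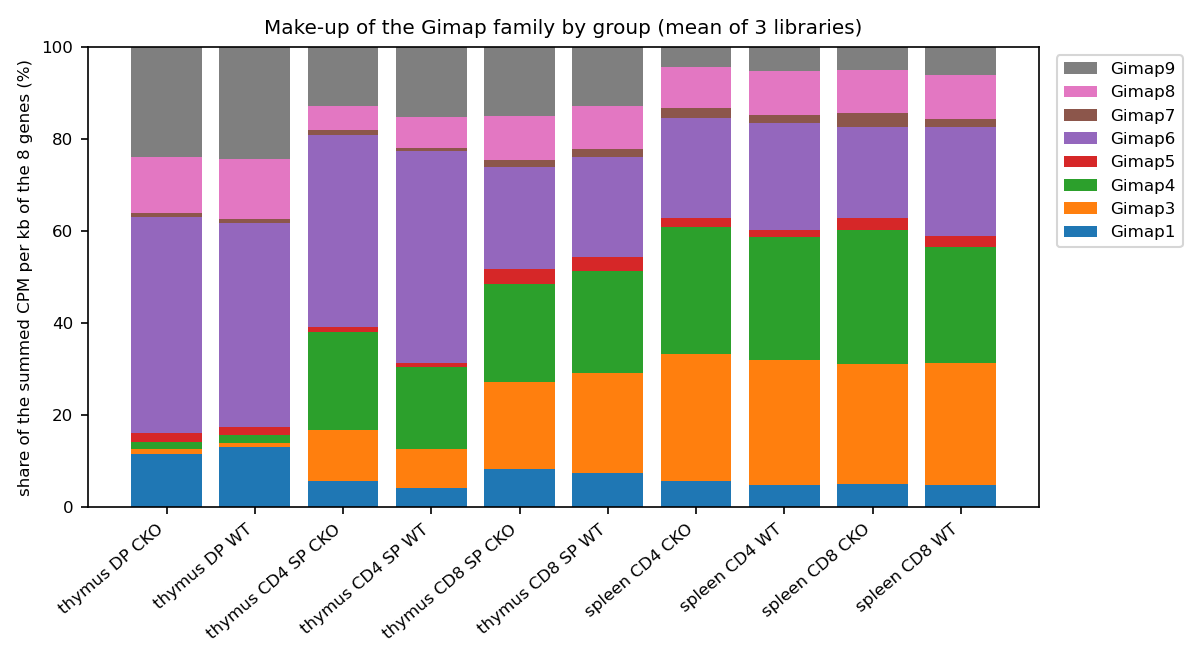
Share of each gene in the summed CPM per kb of the 8 Gimap genes, in percent, as the mean of 3 libraries, for CKO and WT of each population. Gimap6 and Gimap9 make up most of the bar in DP cells, and Gimap3, Gimap4 and Gimap6 in spleen.

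Between thymocyte stages, CD4 SP over DP, Gimap4 and Gimap3 were the members with the largest rises. The WT CD4 SP libraries also carried double-positive stage signal, as given above, and its part in these differences was not tested. In WT mice, Gimap4 had 193, 245 and 128 CPM in CD4 SP cells, against 4.93, 3.98 and 7.34 CPM in DP cells. Gimap3 had 123, 162 and 90.5 CPM in CD4 SP cells, against 3.87, 4.28 and 5.29 CPM in DP cells. For both genes every CD4 SP library lay far above every DP library, with log2 fold changes of 5.11 ± 0.26 for Gimap4 and 4.81 ± 0.22 for Gimap3 (SE, adjusted p = 1.69e-08 and 7.43e-09, edgeR).

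Gimap6, the autophagy-linked member, had 970, 1117 and 683 CPM in WT CD4 SP cells, against 321, 249.8 and 287 CPM in WT DP cells. Gimap7, whose human counterpart stimulates GTP hydrolysis by another GIMAP protein, had 8.37, 10.7 and 9.83 CPM in CD4 SP cells, against 2.97, 2.68 and 4.21 CPM in DP cells. Neither gene overlapped between stages, and they rose by 1.70 ± 0.17 and 1.54 ± 0.21 on the log2 scale (adjusted p = 6.16e-06 and 8.96e-05). Gimap9 had 162, 160.2 and 106 CPM in CD4 SP cells, against 64.9 to 85.1 CPM in DP cells, and rose by 0.96 ± 0.16 (adjusted p = 0.000407). Gimap8 had 159.5, 136 and 122 CPM in CD4 SP cells, against 102, 77.5 and 88.3 CPM in DP cells, and rose by 0.65 ± 0.13 (adjusted p = 0.00146). Gimap5, the survival gene of peripheral T cells, had 21.6, 23.5 and 22.1 CPM in CD4 SP cells, against 19.1, 10.9 and 14.5 CPM in DP cells. It did not overlap either and rose by 0.59 ± 0.17 (adjusted p = 0.0159), and it lost its call without WT DP library 18 or 24 (adjusted p = 0.0839 and 0.0641).

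Gimap1 was the exception. It had 65.7, 83.0 and 70.3 CPM in WT CD4 SP cells, against 74.6, 65.2 and 82.9 CPM in WT DP cells, and the ranges overlapped (log2 fold change -0.020 ± 0.12, adjusted p = 0.908). In all, 7 of 8 members rose and 0 fell, against 21.7% of all 11826 genes tested called higher (39.8% called in either direction). The same 7 members had no overlap between stages, as did 26.9% of all genes in that direction. The median log2 fold change was 1.25 over the members and 0.0050 over all genes. Genes of other lists moved at this step too: all 12 mature thymocyte genes rose, with S1pr1 (thymus egress) at 5.13, all 8 double-positive stage genes fell, and of 16 tested genes of other immune GTPase families 14 rose and 1 fell, with Iigp1 at 4.22 and Mx2 at 2.22. Of 16 tested partners and mitochondrial survival genes, 7 rose and 2 fell, with survival and death genes in both directions. The survival genes Bcl2a1d (3.24), Bcl2 (2.97) and Mcl1 (0.34) rose and Bcl2l1 (-0.63) fell. The death genes Pmaip1 (0.85), Bbc3 (0.72), Bcl2l11 (0.50) and Bax (0.37) rose and Bad (-0.92) fell.

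In CKO mice the same comparison gave larger spreads. Gimap4 had 138, 521 and 255 CPM in CKO CD4 SP cells 14, 17 and 23, against 5.23, 6.28 and 7.87 CPM in CKO DP cells. Gimap3 had 116, 351 and 168 CPM in CD4 SP, against 4.26, 6.98 and 7.93 CPM in DP, and Gimap7 had 13.0, 21.2 and 12.1 CPM in CD4 SP, against 3.45, 3.74 and 4.18 CPM in DP. All 3 genes were without overlap between the stages and rose, by 5.58 ± 0.56, 5.08 ± 0.52 and 2.06 ± 0.30 on the log2 scale (adjusted p = 0.00637, 0.00646 and 0.016, edgeR). Without CD4 SP library CKO 14 these were 5.91, 5.36 and 2.14, and without CD4 SP library CKO 17 they were 4.96, 4.51 and 1.76, and all 3 genes passed both times. With the animal as a block, Gimap7 lost its call (adjusted p = 0.0569) and 2 members were called, against 1.98% of genes. Gimap6 had 479, 1694 and 1168 CPM in CKO CD4 SP cells, against 349.8, 408 and 320.3 CPM in CKO DP cells, also without overlap, and did not pass (log2 fold change 1.65 ± 0.43, adjusted p = 0.0775).

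The count of called members was 3 of 8, all higher, against 4.69% of 11780 genes called higher (5.41% in either direction), and 6 of 8 lay without overlap above DP, against 17.5% of genes. Without the library labelled CD4 SP CKO 14 it was 7, all higher, against 20.4% of genes called higher (38.1% in either direction), with Gimap1 the one member not called at a log2 fold change of -0.032. Without CKO 17 it was 3, against 2.31% of genes, and it was 0 without any one of the 3 DP CKO libraries, where Gimap3 and Gimap4 had adjusted p between 0.0529 and 0.0671. DESeq2 called 5 (14.6% of its genes) and limma voom with quality weights 7 (33.6% of its genes). Gimap1 and Gimap8 set CKO 14 apart: it had 139 CPM of Gimap1, against 78.8 and 71.9 CPM in CKO 17 and 23, and 43.6 CPM of Gimap8, against 272 and 177 CPM in CKO 17 and 23 and 81.7 to 115 CPM in CKO DP cells.

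Across the 6 CD4 SP libraries the levels of Gimap3, Gimap4 and Gimap6 ran opposite to the double-positive stage sum. CKO 17, with the lowest sum, was the highest of the 6 for all 3 genes. The male mice were CKO 17 and WT 18. Within each genotype the male mouse had the lowest sum and the highest level of all 3 genes. CKO 14 and WT 24, with the highest sums, were the lowest 2 for each of them. Sex and the double-positive signal ran together here, and their parts in the CD4 SP levels were not tested.

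**Figure D3:**
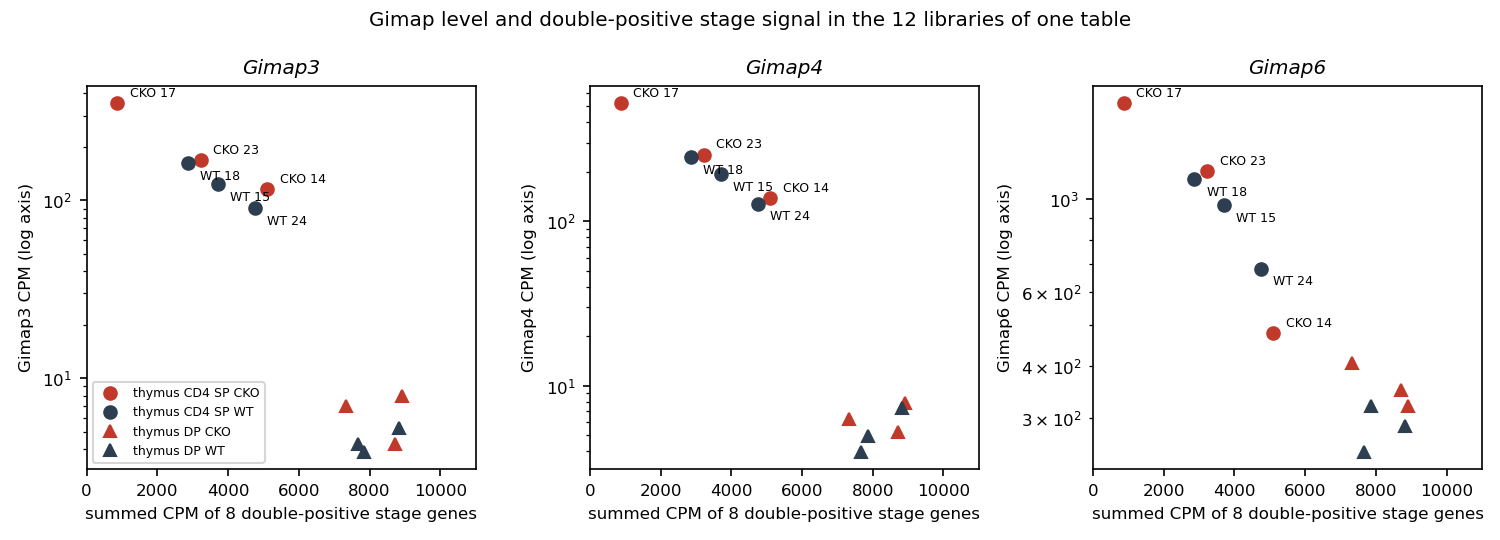
Levels of Gimap3, Gimap4 and Gimap6 in CPM (log axis) against the summed CPM of 8 double-positive stage genes, in the 6 CD4 SP libraries (circles) and 6 DP libraries (triangles), CKO in red and WT in dark blue. CKO 17 is at the upper left, with a sum of 869 CPM, and the DP libraries are at the lower right, at 7326 CPM and above.

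Between CKO and WT thymocytes, 0 of 8 members passed in DP cells, where edgeR called 0.0258% of 11634 genes. All 8 estimates were above 0 there, with a median log2 fold change of 0.21 over the members and 0.0030 over all genes, and 0 members were without overlap (12.2% of all genes were). The smallest p belonged to Gimap6, which had 349.8, 408 and 320.3 CPM in CKO cells, against 321, 249.8 and 287 CPM in WT cells (log2 fold change 0.33 ± 0.10, adjusted p = 0.66). The unadjusted p was under 0.05 for 1 of the 8, Gimap6, and for 7.07% of all genes, and DESeq2 also called 0 members and 0.237% of its genes.

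In CD4 SP thymocytes edgeR called 0 of 8 members and 0 of 11839 genes (0%), with 1 member, Gimap7, and 2.58% of genes at an unadjusted p under 0.05, and DESeq2 called 0 members and 0.00845% of its genes. The member estimates ran from 0.024 (Gimap9) to 0.77 (Gimap3), with a median of 0.41, against 0.020 over all genes. Gimap7 had 13.0, 21.2 and 12.1 CPM in CKO cells, against 8.37, 10.7 and 9.83 CPM in WT cells. It was the one member whose CKO libraries lay above all WT libraries (4.73% of all genes did so), at a log2 fold change of 0.70 ± 0.28 (adjusted p = 0.958). The estimates moved with single CKO libraries. Without CKO 17 those of Gimap3, Gimap4, Gimap5 and Gimap7 were 0.22, 0.086, 0.17 and 0.42, and those of Gimap6, Gimap8 and Gimap9 were -0.14, -0.32 and -0.18. Without CKO 14 the estimates were 1.03 for Gimap3, 1.02 for Gimap4, 0.48 for Gimap5, 0.78 for Gimap7, 0.62 for Gimap6, 0.67 for Gimap8 and 0.21 for Gimap9. Gimap1 went the other way, at 0.58 without CKO 17 and 0.035 without CKO 14. The genotype effect was not shown to differ between CD4 SP and DP cells for any member: the interaction test called 0 of 12216 genes (0%) by edgeR and 0 by DESeq2, with 2.15% at an unadjusted p under 0.05.

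In CD8 SP thymocytes all 8 estimates were below 0, with a median of -0.21 over the members and -0.0024 over all genes, and 0 members passed, against 0.114% of 14911 genes called. At an unadjusted p under 0.05 there were 5 members and 10.4% of genes. Gimap6 had 167, 159 and 161 CPM in CKO cells, against 185, 190.0 and 181 CPM in WT cells. Gimap3 had 99.6, 107 and 98.6 CPM in CKO cells, against 111, 164 and 143 CPM in WT cells, and Gimap7 had 8.53, 8.23 and 6.08 CPM in CKO cells, against 10.1, 11.5 and 9.70 CPM in WT cells. These 3 genes and Gimap4 (78.5 to 83.8 CPM in CKO cells, 84.6 to 118 CPM in WT cells) were lower in every CKO library than in any WT library, as 7.68% of all genes were. Their log2 fold changes were -0.19 ± 0.04, -0.46 ± 0.11, -0.45 ± 0.15 and -0.31 ± 0.10 (adjusted p = 0.13, 0.156, 0.301 and 0.27). DESeq2 called 2 of them lower, Gimap4 and Gimap6 (1.09% of its genes were called lower). With edgeR and no filter on low counts, Gimap3, Gimap4, Gimap6 and Gimap8 were lower, and without WT 1 Gimap3 and Gimap4 were (adjusted p = 0.00316 and 0.0233). With no filter more genes of the whole table were called too, as given in the last section. The share over all genes without WT 1 is not given here. With sex as a covariate 0 members passed, and since 2 of 3 CKO mice were female and all WT mice male, sex and genotype are only partly separable. Of the other lists, 0 of 12 mature thymocyte genes passed (all 12 estimates below 0, median -0.20), 0 of 17 other immune GTPase genes passed (14 below 0, median -0.24), and of 15 candidate regulators Dtx1, a Notch target, fell by 0.60 on the log2 scale (adjusted p = 0.027).

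**Figure D4:**
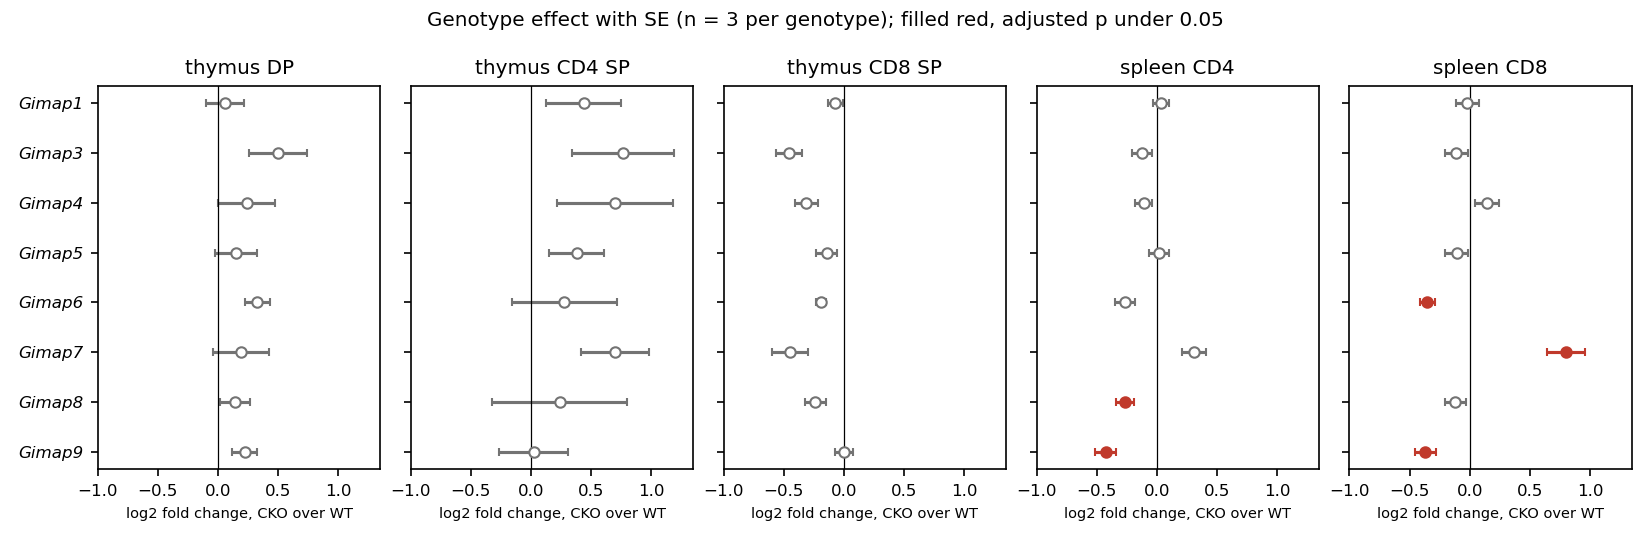
Log2 fold change of CKO over WT with its SE for each Gimap gene in the 5 populations (n = 3 per genotype), with filled red points for adjusted p under 0.05 by edgeR. Points in DP and CD4 SP cells lie above 0, points in CD8 SP cells at or below 0, and called points are found in spleen alone.

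In spleen CD8 cells of CKO mice Gimap7 rose while Gimap6 and Gimap9 fell. Gimap7 had 92.9, 56.7 and 82.5 CPM in CKO cells, against 51.0, 41.9 and 40.2 CPM in WT cells. Every CKO library was above every WT library, and the log2 fold change was 0.80 ± 0.16 (adjusted p = 0.00629, edgeR). Gimap6 had 712, 749.8 and 688 CPM in CKO cells, against 966, 874 and 910.2 CPM in WT cells. It was lower in each CKO library, by -0.35 ± 0.06 on the log2 scale (adjusted p = 0.00442). Gimap9 had 87.8, 76.4 and 96.1 CPM in CKO cells, against 112, 115 and 109.9 CPM in WT cells. It too did not overlap (log2 fold change -0.37 ± 0.09, adjusted p = 0.0158), and lost its call without WT 67 or WT 70 (adjusted p = 0.0532 and 0.0661).

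The other 5 members did not pass in spleen CD8 cells. Gimap1, Gimap3, Gimap4, Gimap5 and Gimap8 had log2 fold changes between -0.12 and 0.14, and their CKO and WT ranges overlapped. Thus 1 member was higher and 2 were lower of 8, against 16.1% of 13917 genes called (9.83% higher and 6.22% lower), and the same 3 members had no overlap, against 35.5% of genes. The median was -0.11 over the members and -0.013 over all genes. Without CKO 65, 5 members were called, against 16.2% of genes, with Gimap3 and Gimap8 lower as well (log2 fold change -0.25 and -0.24, adjusted p = 0.0335 and 0.0385).

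In spleen CD4 cells Gimap9 and Gimap8 fell. Gimap9 had 80.4, 71.9 and 93.2 CPM in CKO cells, against 112, 108 and 109 CPM in WT cells, a log2 fold change of -0.42 ± 0.09 (adjusted p = 0.00765). Gimap8, which carries more than one GTP-binding domain, had 415, 382 and 369 CPM in CKO cells, against 505, 433 and 463 CPM in WT cells, a log2 fold change of -0.26 ± 0.08 (adjusted p = 0.0354). Both were lower in every CKO library than in any WT library, and Gimap8 missed the threshold without CKO 68 or 72 or WT 67 or 71 (adjusted p from 0.0801 to 0.141), and when all 12 spleen libraries shared 1 fit (adjusted p = 0.056).

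Gimap6 and Gimap7 lay just outside the threshold in spleen CD4 cells, in the directions seen in spleen CD8 cells. Gimap7 had 62.0, 57.0 and 62.2 CPM in CKO cells, against 54.9, 41.2 and 50.3 CPM in WT cells, with no overlap (log2 fold change 0.31 ± 0.10, adjusted p = 0.0601). Gimap6 had 837, 958 and 852 CPM in CKO cells, against 1112, 951 and 1120.2 CPM in WT cells, with an overlap of CKO 68 and WT 70 (log2 fold change -0.27 ± 0.08, adjusted p = 0.0507). DESeq2 called both (adjusted p = 0.014 for Gimap6 and 0.038 for Gimap7) and 16% of its genes. Gimap1, Gimap3, Gimap4 and Gimap5 had log2 fold changes between -0.13 and 0.036 and did not pass. In all 2 of 8 were called, both lower, against 14.2% of 14292 genes (8.53% higher, 5.63% lower), and 3 of 8 had no overlap, against 33% of genes. The 2 spleen comparisons used different libraries of the same mice.

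The genotype effect was tested for a difference between spleen CD8 and CD4 cells by the interaction of genotype and population over 12 libraries. It called 0 of 8 members, against 2.56% of 14958 genes, with 1 member, Gimap7, and 12.4% of genes at an unadjusted p under 0.05, and DESeq2 called 0 members and 4.25% of its genes. Gimap7 had the largest estimate, 0.49 ± 0.21 on the log2 scale (CD8 minus CD4, adjusted p = 0.338). With the animal as a block, Gimap7 (0.47, adjusted p = 0.0386) and Gimap4 (0.25, adjusted p = 0.049) passed as higher in CD8 cells, against 7.24% of genes called. Without the block and without CD8 CKO 68, Gimap7 passed alone (adjusted p = 0.0391).

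Between the splenic lineages of WT mice, CD8 over CD4, 5 members fell and 1 rose. Gimap4 had 552, 495 and 486 CPM in CD8 cells, against 663, 616 and 638 CPM in CD4 cells, without overlap (log2 fold change -0.33 ± 0.06, adjusted p = 0.00146). Gimap5 had 128, 109 and 113 CPM in CD8 cells, against 90.9, 80.5 and 93.9 CPM in CD4 cells, and was the one member that rose (0.39 ± 0.08, adjusted p = 0.00188). Gimap1, Gimap8, Gimap3 and Gimap6 fell by 0.28, 0.28, 0.26 and 0.22 on the log2 scale (adjusted p = 0.00547, 0.00506, 0.0126 and 0.0327), and Gimap6 overlapped between the lineages. Gimap3 lost its call without CD4 WT 67, CD8 WT 70 or CD8 WT 71 (adjusted p from 0.0574 to 0.0654), and Gimap6 without CD4 WT 67, CD4 WT 71, CD8 WT 70 or CD8 WT 71 (adjusted p from 0.0993 to 0.137). Gimap7 and Gimap9 did not pass (-0.15 and 0.023). The count of 6 of 8 stands against 31.9% of 14131 genes called (15.3% higher, 16.5% lower), and 5 of 8 had no overlap, against 45.7% of genes.

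In CKO spleen the comparison of CD8 over CD4 called 2 of 8 members, Gimap1 and Gimap6, both lower (log2 fold change -0.34 ± 0.10 and -0.30 ± 0.07, adjusted p = 0.0408 and 0.0167), against 18.6% of 14253 genes (10.3% lower). Gimap1 lost its call without any one library but CD8 CKO 65, and Gimap6 without CD4 CKO 68 or CD8 CKO 72. With the animal as a block it called 6, against 35.5% of all genes: Gimap5 (0.26, adjusted p = 0.00175) and Gimap7 (0.33, adjusted p = 0.0073) higher, and Gimap1, Gimap3, Gimap6 and Gimap8 lower. Gimap7 had 92.9, 56.7 and 82.5 CPM in CKO CD8 cells, against 62.0, 57.0 and 62.2 CPM in CKO CD4 cells of mice 65, 68 and 72, and its libraries overlapped. Gimap7 was thus not higher in CD8 cells in mouse 68, and in WT mice it was lower in CD8 cells of mice 67 and 71.

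Markers of other T cell states moved with genotype in spleen CD8 cells. For the counts below, edgeR called 9.83% of all genes higher and 6.22% lower in spleen CD8 cells. It called 8.53% higher and 5.63% lower in spleen CD4 cells, and 1.81% higher in the interaction. The summed level of 18 effector and memory genes was 2641, 2087 and 3181 CPM in CKO 65, 68 and 72, against 1414, 1545 and 1232 CPM in WT 67, 70 and 71, and 15 of the 18 were called higher. The 15 naive and resting T cell genes summed to 7646 to 8176 CPM in CKO cells, against 9693 to 10353 CPM in WT cells, and 9 were called lower, with Ccr7 (lymph node homing) at -0.69 and S1pr1 at -0.62. Of 4 NK cell genes 3 were called higher, with sums of 22.0 to 42.0 CPM in CKO cells, against 9.71 to 14.6 CPM in WT cells, and of 8 myeloid genes 3 were (52.7 to 81.7 CPM in CKO cells, 35.9 to 48.0 CPM in WT cells). In spleen CD4 cells all 8 myeloid marker genes were called higher, with sums of 194, 122 and 276 CPM in CKO cells, against 111, 83.9 and 82.1 CPM in WT cells, and the effector and memory sums overlapped (562 to 1101 CPM in CKO cells, 856 to 965 CPM in WT cells). Of 4 endothelial marker genes, a cell type that also carries Gimap transcripts, Emcn was at 0 in all spleen libraries, and nearly all of the sum came from Pecam1, which T cells also express (means of 129 CPM in CKO and 161 CPM in WT spleen CD8 cells, and 259 CPM in CKO and 237 CPM in WT spleen CD4 cells) and which was called lower in CKO spleen CD8 cells. The sum was 112 to 141 CPM in CKO and 152 to 168 CPM in WT spleen CD8 cells, and 239 to 280 CPM in CKO and 225 to 244 CPM in WT spleen CD4 cells. The 4 regulatory T cell genes summed to 365 to 418 CPM in CKO and 538 to 630 CPM in WT spleen CD4 cells, with 3 called lower. In spleen CD8 cells they summed to 163 to 179 CPM in CKO and 89.9 to 113 CPM in WT, with 3 called higher (Ikzf2, Foxp3 and Il2ra), and the interaction called all 4 higher in CD8 cells. The part of these cell states and types in the Gimap levels was not tested.

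Genes linked to GIMAP function were compared from a list of 18 partners and mitochondrial survival genes. In CKO spleen CD8 cells 3 of 17 tested rose and 0 fell, a share near that of all genes (16.1% called, 9.83% higher): Bax, a death effector, by 0.64, Bcl2l1, a survival gene, by 0.60 and Bcl2 by 0.27 on the log2 scale (adjusted p = 0.0019, 0.0027 and 0.029). In CKO spleen CD4 cells Bax and Bcl2 rose (0.56 and 0.33) and the Bcl2 relatives Bcl2a1b and Bcl2a1d, near-identical copies whose reads can be shared, fell by 0.86 and 0.82, 4 called of 17 tested against 14.2% of all genes. The median over the list was 0.20 in spleen CD8 and -0.055 in spleen CD4 cells, against -0.013 and -0.0057 over all genes. The autophagy genes of the list, including Gabarapl2, the partner of Gimap6, did not pass in either.

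Among 17 genes of other immune GTPase families, 3 rose and 4 fell in CKO spleen CD8 cells, and 3 rose and 5 fell in CKO spleen CD4 cells. Over all genes, 9.83% rose and 6.22% fell in spleen CD8, and 8.53% rose and 5.63% fell in spleen CD4 cells. Gbp9 and Gbp4 rose in both comparisons (0.64 and 0.58 in CD8, 0.87 and 0.71 in CD4), and Irgm1 fell in both (-0.99 in CD8 and -0.90 in CD4). Tgtp1 fell by 1.05 in CD8 cells and Gbp5 by 0.78 in CD4 cells. Of 14 tested candidate regulators of T cell maturation, Ikzf1 was the one called in spleen CD8 cells (-0.21), and Rbpj (-0.41) and Klf3 (0.31) were called in spleen CD4 cells.

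The annotated neighbours of the cluster were compared with it. On the Gimap8 side Repin1, Zfp775 and AI854703 were measured in spleen, with log2 fold changes of 0.21, -0.22 and -0.21 in CKO spleen CD8 cells and 0.096, -0.15 and -0.35 in CKO spleen CD4 cells, and none of these passed. Between CD4 SP and DP cells of WT mice AI854703, annotated as a transcribed pseudogene, rose by 1.72 (adjusted p = 0.00277), and Repin1 did not pass (0.34). On the Gimap3 side Tmem176b and Tmem176a rose in CKO spleen CD4 cells (1.39 each, adjusted p = 0.0025 and 0.00969), where Tmem176b had 10.7, 6.62 and 10.5 CPM in CKO cells, against 3.02, 4.47 and 3.16 CPM in WT cells. The antisense gene Gimap1os had log2 fold changes of -0.23 in spleen CD4 and -0.017 in spleen CD8 cells of CKO mice, and neither passed.

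The genes whose pattern over libraries was closest to the family mean were found by the root-mean-square (RMS) difference of log2(CPM + 1) values, each centred on its gene's mean. Over 12 spleen libraries these were Inpp5b, Arf3, Smek2, Yipf1 and Ormdl3 (RMS 0.050 to 0.060). Each member enters the family mean, so part of a member's closeness to it is built in. The members' own RMS in spleen ran from 0.092 (Gimap4) to 0.35 (Gimap7). The median over 9043 genes was 0.20, with Gimap5 (0.22), Gimap9 (0.21) and Gimap7 beyond it. Over 12 thymus DP and CD4 SP libraries the closest were Abcc1, B2m, Jak3, Inf2 and Mapk11 (RMS 0.11 to 0.15), and Gimap7 (0.26) and Gimap6 (0.27) were the closest members, with Gimap4 (1.60) farthest. The median over 9227 genes was 1.04 there, and Gimap3 (1.40) and Gimap4 lay beyond it. Over 6 thymus CD8 SP libraries the closest were Hdgfrp3, Rab6b, Sp100, Prr7 and Fgd3 (RMS 0.022 to 0.033), and Gimap6 (0.066) the closest member, while Gimap3 (0.154) and Gimap9 (0.165) lay beyond the median over 9205 genes (0.152).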

How the data were processed

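Poly(A)-selected RNA of sorted T cells was sequenced after library preparation that keeps strand information, as the labels' protocols state. The authors deposited read counts per gene in 3 tables. The tools HISAT2 and HTSeq and the build GRCm38 come from the submitters' processing notes. Tool versions, gene annotation and the strand option of the counting were not given in the sources used here. Groups and replicate numbers came from sample titles. The members and gene lists were chosen with earlier results of these data known, and all 8 members are named.

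Genes were filtered with filterByExpr (minimum count 10, minimum total 15), scaled by TMM and tested with the quasi-likelihood test of edgeR 4.0.16 in R 4.3.3, two-sided, with Benjamini-Hochberg adjustment at 0.05 over all genes of a comparison. CKO and WT were compared on 6 libraries, interactions on 12. Each SE was taken from the log2 fold change over the root of its F value. All adjusted p are from edgeR unless another tool is named: DESeq2 1.42.0 and limma 3.58.1 (voom) were alternatives, with DESeq2 size factors, no filter, all libraries of a table, each library left out, sex and the animal block. Of each list, the text names genes that were called or had the smallest p, and it names all neighbours of the cluster that were measured.

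Numbers shared by the thymus DP and CD4 SP titles, and by the titles of both spleen populations, were read as the mice that gave both, since the series text gives 3 mice per genotype. Deviations of same-numbered samples correlated at 0.126 to 0.641 in spleen and -0.253 to 0.354 in thymus DP and CD4 SP. In thymus the same-numbered WT pairs were at 0.354, 0.224 and 0.224, and the different-numbered WT pairs were all below 0. The same-numbered CKO pairs were at 0.0851, 0.250 and -0.253, and the different-numbered CKO pairs ran from -0.258 to 0.254. Sex by Ddx3y was the same in both thymus libraries of each number. The thymus correlations thus followed the numbers in WT and did not show the pairing in CKO. No pair of replicates agreed within sampling noise. P-values of CKO over WT measure the spread between 3 mice per group. Tests between populations and of interactions took libraries with the same mouse number as independent, except in the fits with the animal as a block. Counts set the precision: totals ran from 11865646 to 35353441 per library. Tests were tried on simulated counts. Promoter sequences are from RefSeq. Protein sequences were not analysed here. 1 gene of the double-positive stage list is not reported here, and the list's sums and counts leave it out.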

Additional observations from a re-analysis of the deposited data

Results flagged for a closer look

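Gimap7 is listed because its estimates of CKO over WT differed in sign between populations, with every CKO library on one side of every WT library in the 4 populations below. Such a lack of overlap was not rare. Among all genes, 4.73% lay wholly higher in CKO thymocytes of the CD4 SP stage, and 7.68% wholly lower in those of the CD8 SP stage. For splenic T cells the shares wholly higher in CKO were 18.3% (CD8) and 17.3% (CD4), and the shares in either direction were 35.5% and 33%. The log2 fold change of Gimap7, CKO over WT, was 0.70 in CD4 SP thymocytes and -0.45 in CD8 SP thymocytes. In the spleen it was 0.31 in CD4 cells and 0.80 in CD8 cells, and 1 of these 4 values, that of spleen CD8 cells, passed the test. With 1 library left out the value ran from 0.42 (without CKO 17) to 0.85 in CD4 SP, from -0.54 to -0.31 in CD8 SP, from 0.20 (without WT 70) to 0.40 in spleen CD4 and from 0.65 to 0.98 in spleen CD8 cells. The difference between thymus CD8 SP and the other populations was not tested, since the counts are in separate tables with different gene sets. In thymus CD8 SP cells 3 of 3 WT mice and 1 of 3 CKO mice were male, the spleen libraries were all female, and the part of sex in the difference was not tested across tables. Gimap7 was the lowest or second lowest member per kilobase of exon in all 10 groups.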

How the results depend on the processing

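Counts of called members that changed with the processing were as follows. In thymus CD8 SP the count was 0, against 2 with DESeq2, 4 with no filter on low counts, and 0 to 2 with 1 library left out. In spleen CD4 it was 2, against 4 with DESeq2, 4 with no filter and 1 to 3 with 1 library left out. In spleen CD8 it was 3, and 2 to 5 with 1 library left out. For CD4 SP over DP in CKO it was 3, against 5 with DESeq2, 7 with voom and 0 to 7 with 1 library left out. For spleen CD8 over CD4 in CKO it was 2, against 6 with the animal block and 0 to 3 with 1 library left out. For the spleen interaction it was 0, against 1 with no filter, 2 with the block and 0 to 1 with 1 library left out. With the block on replicate number the count was 2 for CD4 SP over DP in CKO, 7 for it in WT, 6 for spleen CD8 over CD4 in WT and 0 for the thymus interaction, and it changed no call but those given with the results. CD8 SP numbers were only numbers (same-numbered CKO and WT deviations correlated at 0.042 to 0.16), and the block gave 0 there. Over all genes, edgeR called 14.2% and DESeq2 16% in spleen CD4, and 16.1% and 18.2% in spleen CD8. With 1 library left out, shares over all genes are given only where the results name them. Most of these member counts are thus not compared with genes at large. The cause of these changes in count was not tested.

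Counts over all genes moved too: 3, 19 (DESeq2) and 0 (all 12 libraries) in thymus DP, 0 and 1 (DESeq2) in thymus CD4 SP, 17, 210 (DESeq2), 450 (no filter) and 3 (sex) in thymus CD8 SP, 637, 1724 (DESeq2), 3960 (voom) and 233 (block) for CD4 SP over DP in CKO, 2656 and 5055 (block) for spleen CD8 over CD4 in CKO, and 383, 636 (DESeq2), 844 (no filter) and 1083 (block) for the spleen interaction.

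Signs turned only for estimates that did not pass. Gimap9 in thymus CD8 SP was 0.00019 with no filter, 0.010 with voom and 0.099 with sex as a covariate, where Gimap1 was 0.015. With voom Gimap1 was 0.014 for CD4 SP over DP in WT and -0.068 in CKO, and in the thymus interaction Gimap1 was -0.076 and Gimap6 0.17. With the block Gimap8 was -0.23 in the thymus interaction. With 1 library left out, log2 fold changes ran as follows. In CKO over WT, Gimap1 ran from -0.098 to 0.25 and Gimap5 from -0.028 to 0.37 in thymus DP, Gimap6 from -0.14 to 0.62, Gimap8 from -0.32 to 0.67 and Gimap9 from -0.18 to 0.21 in CD4 SP, Gimap9 from -0.057 to 0.068 in CD8 SP, Gimap1 from -0.019 to 0.077 and Gimap5 from -0.046 to 0.072 in spleen CD4, and Gimap1 from -0.14 to 0.045 in spleen CD8. For CD4 SP over DP Gimap1 ran from -0.13 to 0.049 in WT and -0.032 to 0.55 in CKO. For spleen CD8 over CD4 in CKO Gimap4 ran from -0.16 to 0.038 and Gimap9 from -0.0062 to 0.19. In the thymus interaction Gimap1 ran from -0.012 to 0.52, Gimap3 from -0.32 to 0.55, Gimap4 from -0.19 to 0.80, Gimap5 from -0.021 to 0.38, Gimap6 from -0.49 to 0.30 and Gimap8 from -0.48 to 0.54. In the spleen interaction Gimap1 ran from -0.16 to 0.018, Gimap3 from -0.11 to 0.087 and Gimap9 from -0.024 to 0.16. Sex as a covariate could not be fitted in spleen, where all mice were female. Counting error bears most on Gimap3, Gimap4 and Gimap7 in DP libraries, which had the lowest CPM of the members there.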
